A study of Saccharomyces cerevisiae with 2 samples.

Results

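Protein phosphatase 1 of budding yeast is represented here by 10 heterozygous deletion strains: GLC7, which encodes the catalytic subunit, and 9 strains for proteins that bind or regulate it (REG1, REG2, GAC1, GIP1, GIP2, SDS22, GLC8, YPI1 and SHP1). They were chosen by gene name, with their values in these data already known, out of 5219 strains with a value on both arrays. All 10 were found under the gene symbols of the array platform, and each had a value for its 2 tags on each of 2 arrays. For this reason the ratios below are descriptions and carry no test.

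Every strain is a Saccharomyces cerevisiae diploid that lacks 1 copy of a single gene and carries 2 short DNA tags that identify it. Per the labels, the mixture of 5896 such strains received either a tub1D::URA3 cassette, which removes 1 copy of the alpha-tubulin gene TUB1, or, as the control, a ura3D::URA3 cassette. Both pools grew for 2 days at 30 °C on medium lacking uracil, and tags amplified from their genomic DNA were hybridised together, the tub1 pool in Cy3 and the control pool in Cy5. Experiments 1 and 2 gave 1 array each. The dyes were not swapped between them, which leaves any dye bias in the ratios, and nothing in the labels says whether they began from separate transformations. The spread between the arrays may therefore be technical, and 2 arrays limit the precision of every mean below.

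Ratios are log2 values with the deposited sign, centred so that the median tag of each set on each array is 0. No label states which pool is on top of the deposited ratio. Going by the dyes and by the scanner program's customary red-over-green ratio, a positive value is likely control over tub1, that is, fewer tags of the strain in the tub1 pool, and a negative value likely the reverse. Spot brightness was not used here, so the signal behind each ratio is unknown.

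Protein phosphatase 1 removes phosphate groups from serine and threonine residues. GLC7 encodes the only catalytic subunit of this type in budding yeast and is essential, and regulatory proteins direct it to different substrates and places in the cell. At kinetochores, the structures that join chromosomes to spindle microtubules, it opposes the Aurora kinase Ipl1, which releases faulty attachments. Other regulators direct it to glucose repression, glycogen synthesis, spore formation or the nucleus.

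The strains did not share a direction. The catalytic subunit GLC7, the regulators REG2 and GIP1 and the nuclear regulator SDS22 had positive ratios on both arrays, REG1, GAC1 and YPI1 had negative ratios on both, and GIP2, GLC8 and SHP1 changed sign between arrays. Thus 4 of 10 strains were positive on both arrays, where 32.7% of all strains were, and 3 of 10 were negative on both, where 41.7% were. The other 3 had opposite signs, as did 25.5% of all strains. The median over the 10 strains was 0.05, with 0.20 on array 1 and 0.08 on array 2, against a median of -0.09 for all strains. As deposited, without centring, the median of the 10 was -0.03. Centring shifted all strains alike on each array, so this uncentred value is not comparable with the centred -0.09. These shares were counted on the values that were known when the strains were chosen, and nothing is read from them.

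GLC7, the catalytic subunit, had ratios of 0.81 (first tag) and 0.52 (second tag) on array 1, followed by 0.68 and 0.87 on array 2; tags are given in this order throughout. All 4 values lay on the positive side and within a narrow range. The mean was 0.72 ± 0.08 (SD, n = 2 arrays), a linear ratio of 1.64, and it ranked 208 of 5219 from the positive end. Between its arrays it differed by 0.11, and 77.4% of all strains differed by more.

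REG2 and REG1 encode related regulatory subunits, and Reg1 targets the phosphatase to the glucose repression pathway, where it acts against the kinase Snf1. The REG2 strain had 1.10 and 1.36 on array 1 and 0.72 and 1.10 on array 2. Each of its tags was printed on 6 spots, and 24 of 24 spot values were positive, from 0.44 to 1.43. Its mean of 1.07 ± 0.23 was the highest of the 10 and ranked 41 of 5219.

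The REG1 strain had 0.47 and -1.18 on array 1 and 0.22 and -0.28 on array 2. Its first tag was positive and its second tag negative on both arrays, so that the mean of -0.19 ± 0.23 averaged over opposing tags. Of its 24 spot values 12 were positive. The 6 spots of the second tag on array 1 ranged from -1.57 to -0.44, with an SD of 0.41, where the median SD of such tags was 0.06. REG1 and REG2 thus stood apart on both arrays by their means (-0.36 and -0.03 for REG1, 1.23 and 0.91 for REG2), but the first tags of the pair had the same sign.

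Gac1 brings the phosphatase to glycogen synthase, and Gip2 is a putative regulatory subunit related to it. The GAC1 strain had 0.39 and -3.02 on array 1 and -0.55 and -0.40 on array 2. Its mean of -0.89 ± 0.59 rested mostly on the second tag of array 1. The 6 spots of that tag ranged from -3.52 to -1.57 (SD 0.79), and its 2 tags differed by 3.41 on that array, a gap exceeded by 4.90% of all strains. GIP2 had -0.18 and 0.70 on array 1 and -0.42 and 0.14 on array 2. Its first tag was negative and its second positive on both arrays, and the mean stayed near 0 at 0.06 ± 0.28; uncentred it was -0.02.

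GIP1 encodes a subunit made during meiosis that is needed for spore wall formation. Its strain had 0.47 and 1.47 on array 1 and -0.35 and 1.72 on array 2. The second tag was strongly positive on both arrays, while the first tag changed sign. The mean was 0.83 ± 0.20 and ranked 132 of 5219, but the first tag alone averaged 0.06 and the second alone 1.60. On array 2 its tags differed by 2.07, which 4.55% of all strains exceeded.

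SDS22, GLC8 and YPI1 encode conserved regulators that bind the catalytic subunit directly. SDS22, an essential leucine-rich repeat protein, had 0.58 and 0.43 on array 1 and 0.28 and 0.09 on array 2, a mean of 0.35 ± 0.23. All 4 values were positive, and array 1 was the higher. YPI1, the essential relative of mammalian inhibitor 3, had -0.17 and -0.03 on array 1 and -0.67 and -0.41 on array 2, a mean of -0.32 ± 0.31. All 4 values were negative, and array 2 was the lower. GLC8, the relative of mammalian inhibitor 2, had 0.37 and -0.10 on array 1 and 0.29 and -0.39 on array 2. Its first tag was positive and its second negative on both arrays, with a mean of 0.04 ± 0.13 that became -0.04 without centring.

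SHP1 encodes a UBX-domain cofactor of the ATPase Cdc48 that also promotes the nuclear function of Glc7. Its strain had -1.52 and -3.72 on array 1 but 0.03 and 0.46 on array 2. The arrays disagreed in both tags, the strain mean being -2.62 on array 1 and 0.24 on array 2, and the difference of 2.86 was exceeded by 1.02% of all strains. The overall mean of -1.19 ± 2.02 therefore describes neither array. Strongly negative tags were more frequent on array 1 in general, where 14.6% of all tags lay at or under -1.5, against 3.91% on array 2.

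**Figure D1:**
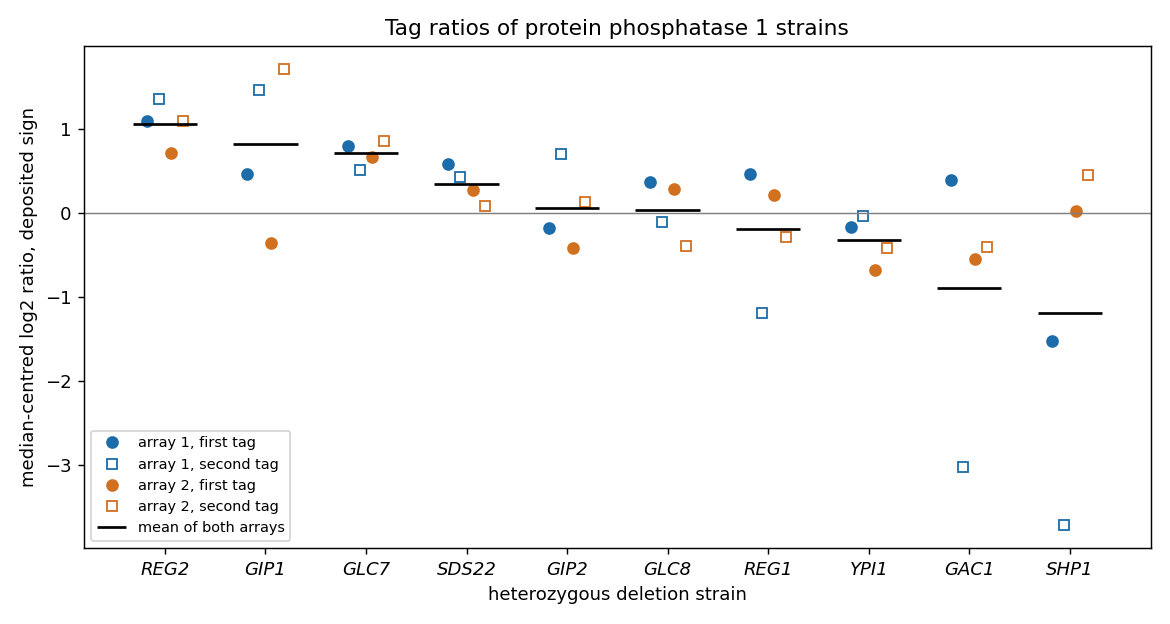
Median-centred log2 ratio (vertical axis, deposited sign) of each tag on each array for the 10 strains, ordered by mean; filled circles are first tags, open squares second tags, blue array 1 and orange array 2, and bars are means of both arrays. The 4 values of GLC7 lie between 0.52 and 0.87, those of REG2 between 0.72 and 1.36, whereas GAC1 and SHP1 spread over more than 3 log2 units.

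Counting tags rather than strains, all 4 tag values were positive for GLC7, REG2 and SDS22, 3 of the 10, where 20.4% of strains with 4 values were so. All 4 were negative for YPI1, 1 of the 10, where 20.1% of strains were so. The tags of REG1, GIP2 and GLC8 kept opposite signs on both arrays. Ordered by mean, the strains ran REG2, GIP1, GLC7, SDS22, GIP2, GLC8, REG1, YPI1, GAC1 and SHP1, and in 8 of the 9 pairs of neighbours in that order the array values overlapped. The exception was GLC7 and SDS22, whose means differed by 0.37.

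None of the 10 strains was at least 2-fold from 0 on both arrays. Over the whole table, 0.728% of strains passed this limit on the positive side and 3.74% on the negative side. REG2 came closest, being over 2-fold on array 1 and at 0.91 on array 2. With limma over all 5219 strains, an adjusted p under 0.05 was reached by 0 positive strains (0.0%) and 0 negative strains (0.0%), while an unadjusted p under 0.05 was reached by 476 and 612. A fit that kept both tags and blocked on the array instead called 350 positive and 166 negative strains. The 2 tags of a strain on an array come from the same pools and hybridisation, so they are not replicates of the experiment.

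**Figure D2:**
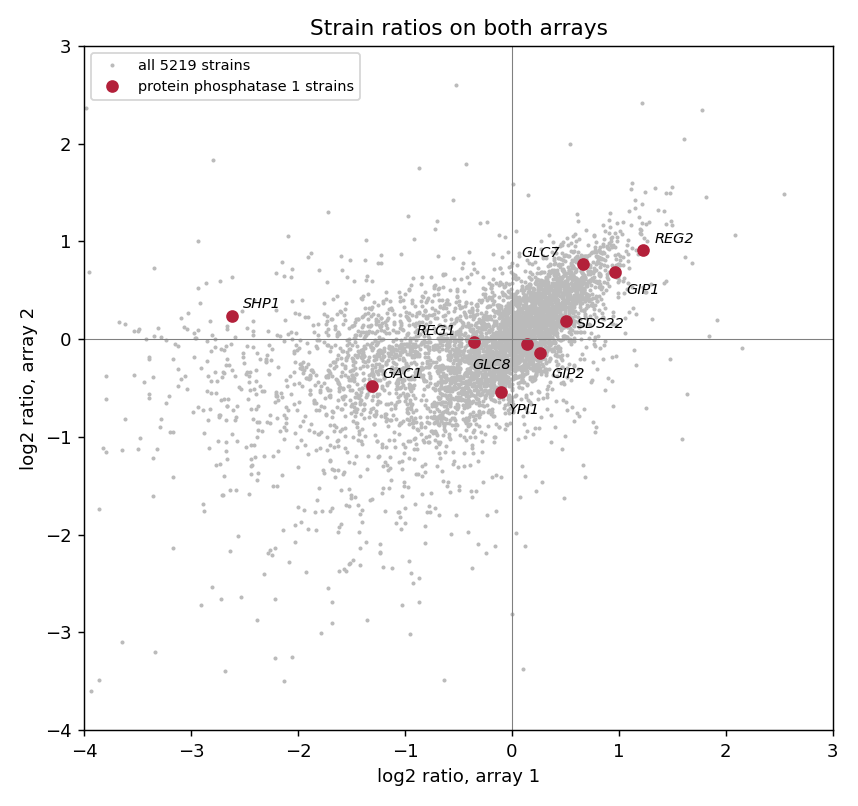
Strain log2 ratio on array 1 (horizontal) and array 2 (vertical) for all 5219 strains (grey) and the 10 phosphatase strains (red); axes run from -4 to 3 and leave out 11 strains. REG2, GIP1 and GLC7 lie in the upper right at array 1 ratios of 1.23, 0.97 and 0.66, while SHP1 lies far left at -2.62 on array 1 and 0.24 on array 2.

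Further strains of the phosphatase's pathways were read from lists of related genes, whose counts stand beside the 32.7% of all strains that were positive and the 41.7% that were negative on both arrays. The genes of glycogen metabolism, which Gac1 connects to the phosphatase, centred on a median of 0.28, 0.23 on the first array and 0.34 on the second, and 0.13 with first tags and 0.38 with second tags alone. Of 8 strains, 5 were positive and 2 negative on both arrays, beside 32.7% and 41.7% of all strains. GLG1, a glycogenin that primes glycogen synthesis, was highest at 0.81 ± 0.10, and GPH1, glycogen phosphorylase, lowest at -0.20 ± 0.17. The Snf1 glucose repression genes, on which Reg1 acts, had a median ratio of -0.21, being -0.26 on array 1 but 0.04 on array 2, and -0.03 with first tags and -0.08 with second tags alone. Of 9 strains, 3 were positive and 4 negative on both arrays. TOS3, a kinase that activates Snf1, was highest at 0.94 ± 1.27, with 1.84 on array 1 and 0.04 on array 2. MIG1, the glucose repressor, was lowest at -1.04 ± 1.34. Neither of these last strains gave a like value on both arrays.

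Other proteins that direct or bind Glc7 lay around a median of -0.10, being -0.13 on array 1 and -0.05 on array 2, and the median turned to 0.19 with first tags alone. Among these 13 strains, 5 were positive and 7 negative on both arrays. REF2, an mRNA 3′ end processing factor, was highest at 0.92 ± 0.07, and its tags read 0.87 and 1.06 on array 1 and 0.90 and 0.83 on array 2. GIP4, a Glc7-interacting protein, was lowest at -1.13 ± 1.18, a mean set mostly by 1 tag on 1 array. Its tags read 0.27 and -4.20 on array 1 and 0.00 and -0.60 on array 2. The APT complex, in which Ref2 and Glc7 act in 3′ end formation, lay around -0.08 in the median, which was -0.0018 on array 1 and -0.09 on array 2, and -0.20 with first tags but 0.08 with second tags alone. Its 6 strains, of which 2 were positive and 2 negative on both arrays, ran from REF2 to PTA1 at -1.39 ± 1.14. In PTA1 the second tag on array 1, at -4.20, set most of the mean. The first tag on that array read -0.18, and array 2 gave -0.51 and -0.65. In REF2 alone of these 6 did all 4 tags read positive.

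Shp1 is a cofactor of Cdc48, and CDC48 and its other cofactors formed a list that did not include SHP1. Their median ratio was -0.19, being -0.41 on array 1 but 0.09 on array 2. It turned to 0.01 with first tags and 0.03 with second tags alone. Of these 11 strains, 5 were positive and 4 negative on both arrays. UBX3 was highest at 0.86 ± 0.05 and UBX2 lowest at -1.08 ± 0.77. The mean of UBX2 rested mostly on the second tag of array 1, at -2.94. Its first tag there read -0.29, and array 2 gave -0.35 and -0.72. CDC48 itself had 0.22 ± 0.25. The other catalytic subunits of the same phosphatase family had -0.40 as their median ratio, being -0.43 on array 1 but -0.08 on array 2, and the median of their first tags alone was 0.03. Of these 11, PPH21, a catalytic subunit of phosphatase 2A, was highest at 0.31 ± 0.15 and alone positive on both arrays, 7 were negative on both, beside 32.7% positive and 41.7% negative of all strains, and PPT1 was lowest at -1.39 ± 0.59. In PPT1 the second tag read -3.94 and -2.28 on the arrays, whereas the first read 0.32 and 0.33.

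On the kinase side of the kinetochore balance, the IPL1 strain had a negative mean, -0.75 ± 0.25, and GLC7 a positive one. Of the 4 measured strains on the list of Ipl1 and kinetochore genes, 1 was positive and 2 negative on both arrays. Over all strains, 32.7% were positive and 41.7% negative on both. The list median was -0.40, being -0.77 with first tags and -0.03 with second tags alone. The IPL1 tags disagreed, at -2.00 and 0.15 on array 1 and -0.30 and -0.84 on array 2. SLI15, the activating partner of Ipl1, was the lowest strain of this list at -3.80 ± 0.90. Its tags read -3.72 and -2.62 on array 1 and then -6.60 and -2.28 on array 2. The value of -6.60 is the smallest ratio in the data, 0.01 on the linear scale, so the mean is uncertain although all 4 values were negative. DAM1, a kinetochore substrate of Ipl1, was highest of the 4 measured strains of this list at 0.32 ± 0.05. Its first tag was negative on both arrays, at -0.06 and -0.11, and its second positive, at 0.77 and 0.68. SPC105, the kinetochore protein that docks Glc7, averaged -0.84 ± 0.65. In SPC105 the second tag on array 1, at -3.52, set the mean, while the first tag read 0.93 and 0.04.

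**Figure D3:**
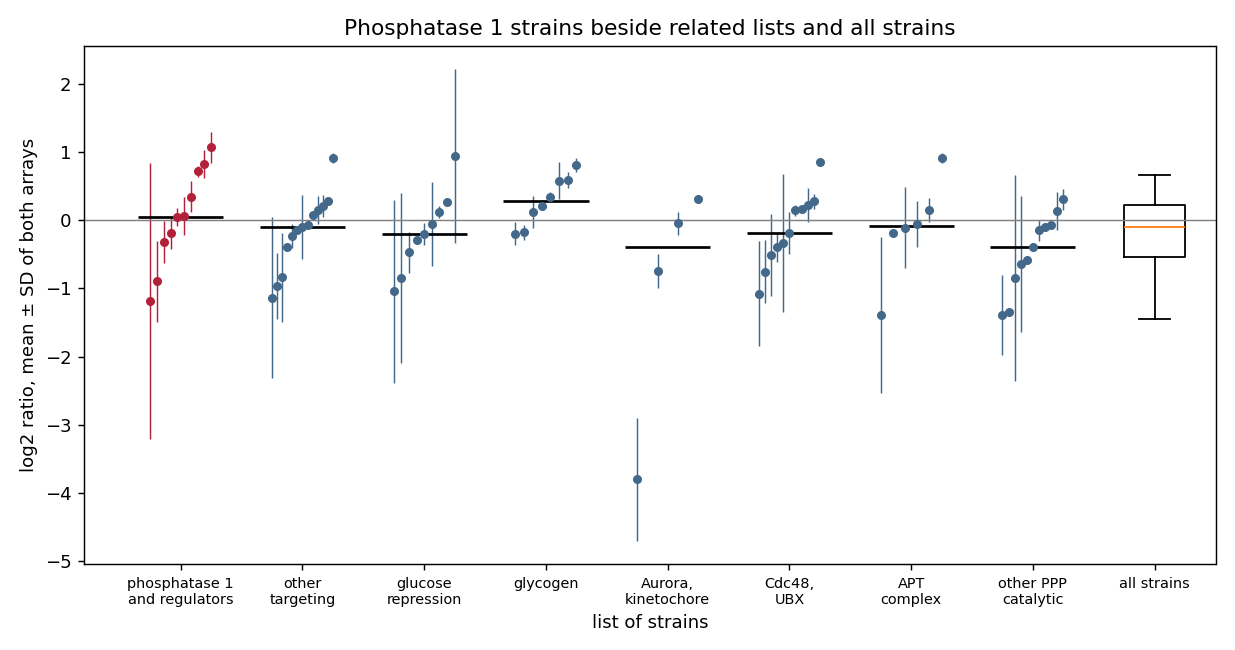
Mean log2 ratio of each strain with SD over both arrays (n = 2), by list; black bars are list medians, and the box at the right gives the median, quartiles and 5th to 95th percentiles of all strains. The 10 phosphatase strains run from -1.19 to 1.07 around a median of 0.05, and the middle of all strains lies between -0.54 and 0.23.

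Strains deleted for the genes beside each of the 10 were read in the same way. GLC7 stood above both measured neighbours, PMD1 at -0.22 ± 0.13 and YER134C at -0.32 ± 0.26. REG2 stood above REB1, at -0.94 ± 0.42, and by its mean above RFS1, at 0.56 ± 0.29. The second tag of REG2, at 1.36 and 1.10 on arrays 1 and 2, was below that of RFS1, at 1.66 and 1.68. Its first tag, at 1.10 and 0.72, was above that of RFS1, at -0.94 and -0.14. By their means, the strains flanking REG1 were lower, VPS54 at -1.24 ± 0.63 and RAD28 at -1.23 ± 0.13. Each of these means rested mostly on 1 tag. In VPS54 the second tag read -2.90 and -1.63 on the arrays and the first -0.47 and 0.05. In RAD28 the first tag read -2.44 and -2.28 and the second 0.16 and -0.35. On array 1 the second tag of REG1, at -1.18, was below that of RAD28. SHP1 was flanked by positive strains, IAI11 at 0.84 ± 0.08 and PTH2 at 0.25 ± 0.05, each with 4 positive tags.

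The neighbours of SDS22 were MST1, a mitochondrial threonyl-tRNA synthetase gene, at 0.82 ± 0.24 and ACP1, a mitochondrial acyl carrier protein gene, at -0.60 ± 0.38. By its mean, GIP1 lay above TCM62 (-0.10 ± 0.18) and ZTA1 (-0.59 ± 0.95), and GLC8 above UPA2 (-0.23 ± 0.08) and ELP6 (-0.37 ± 0.12). The first tag of GIP1 was above those of TCM62 and ZTA1 on array 1 (0.47 against 0.31 and 0.40). On array 2 it was below both (-0.35 against -0.015 and 0.36). In ZTA1 the second tag on array 1, at -2.91, set the mean. GAC1 was below MPC54 (-0.39 ± 0.51) and SYC1 (-0.19 ± 0.01) by its mean, but on array 2 it was above MPC54 (-0.47 against -0.75). The first tag of GAC1 was above those of MPC54 and SYC1 on array 1 (0.39 against -0.05 and -0.26). It was also above both on array 2 (-0.55 against -1.28 and -0.60). GIP2 lay above PIC2 (-0.72 ± 0.39) and, by its mean, close to HIS1 (0.02 ± 0.46). The mean of YPI1 was close to that of RPN11 (-0.33 ± 0.36) and above that of NIC96 (-0.62 ± 0.71), but the arrays differed in order. YPI1 was above RPN11 and NIC96 on array 1 (-0.10 against -0.59 and -1.12) and below both on array 2 (-0.54 against -0.07 and -0.12). None of the 10 genes is close to a gene replaced in the experiment: on the chromosome of URA3, GIP2 is 92 and GLC7 181 genes away, and GLC8, on the chromosome of TUB1, is 443 genes away.

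**Figure D4:**
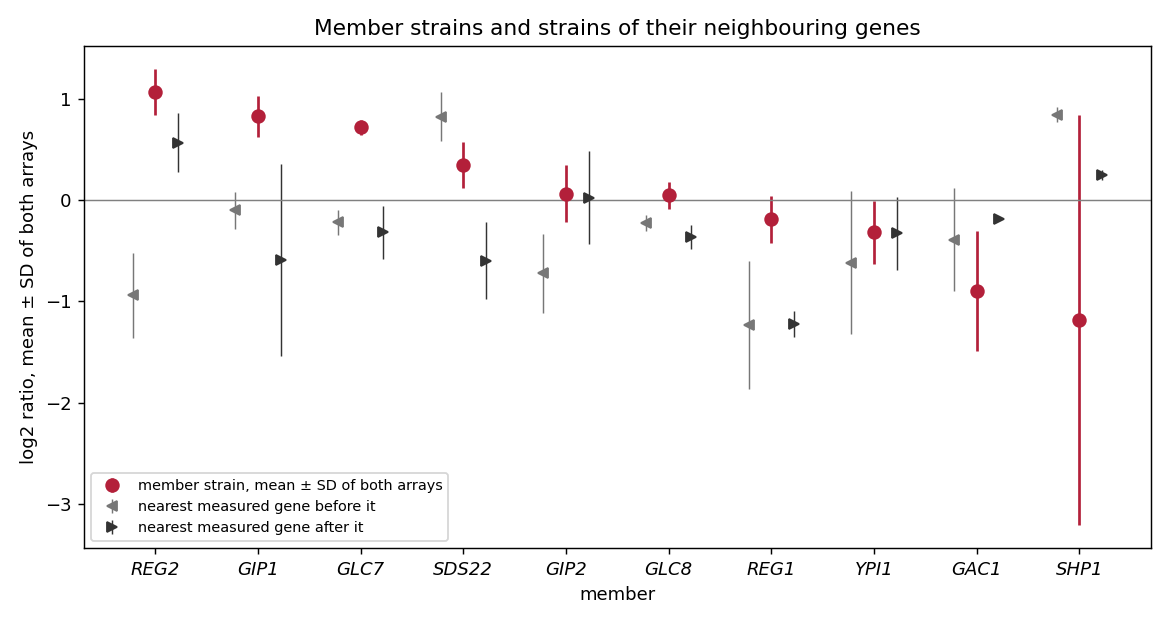
Mean log2 ratio with SD over both arrays (n = 2) of each of the 10 strains (red circles) and of the nearest measured gene before it (grey, pointing left) and after it (dark, pointing right) in chromosomal order. GLC7, at 0.72, lies above neighbours at -0.22 and -0.32. SHP1 lies below neighbours at 0.84 and 0.25 by its mean of -1.19, which describes neither array. On array 2 alone SHP1, at 0.24, was above PTH2, at 0.21, and below IAI11, at 0.90.

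The strains most like GLC7 over its 4 tag values, by Euclidean distance among the 5190 other strains with 4 values, were MTH1, DSS4 and YCR101C. MTH1 had a mean of 0.70 ± 0.11 at a distance of 0.12, DSS4 had 0.72 ± 0.12 at 0.13, and YCR101C had 0.76 ± 0.12 at 0.15. Of the regulators, SDS22 and REG2 were nearest, at distances of 0.91 and 0.92, and ranked 737 and 751 among those strains. SHP1 was farthest, at 4.90.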

How the data were processed

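The deposited values are log2 ratios of 2 channels, 1 per spot, for 22575 spots on each array. Per the labels, the authors scanned the arrays on a GenePix instrument and used GenePix 5.1; how they corrected background, normalized and oriented the ratio is not given in the sources used here. In 2 values the linear ratio was 1e+06, taken as missing. Probes were named through the platform annotation, with symbols and gene order from the R64 gene table (18786 of 18794 named probes matched). Spots of a tag were averaged, the median of each tag set on each array was subtracted, and a strain's tags were averaged per array; 105 symbols with several tags per set were left out. All 5219 strains were tested against 0 with limma 3.58.1 in R 4.3.3 (eBayes, two-sided, Benjamini-Hochberg, threshold 0.05), after a check on simulated ratios. That check gave all strains the same spread, whereas the SD here ran from 0.08 in GLC7 to 2.02 in SHP1. It therefore does not show which changes limma could detect in these data. Tables used Python 3.11.15 and pandas 2.3.3, and plots matplotlib 3.10.9. The strains, lists and tests were chosen with earlier results of these data known. Named genes were the 10 strains, the highest and lowest of each list, the nearest measured neighbours and the 3 strains most like GLC7; CDC48, IPL1, SPC105 and the genes under other observations were added after their values were seen. Tag and protein sequences were not used here. GAL83, BIR1 and NBL1, on the related lists, were not analysed here.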

Additional observations from a re-analysis of the deposited data

How the results depend on the processing

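Quantile normalization, the median of the spots and leaving out values at the smallest ratio turned the sign of 0 of the 10 strains, and uncentred ratios turned GIP2 and GLC8. The first tag alone turned REG1 and GIP2 and moved the median of the 10 to 0.19; the second tag alone turned GLC8 and put 2 strains, GIP1 and REG2, at least 2-fold positive on both arrays. Without experiment 1, the signs of GIP2, GLC8 and SHP1 turned. With a single array left out in turn, the median of the 10 was 0.078 to 0.20, and strains 2-fold positive numbered 0 to 1. Strains 2-fold negative numbered 0 to 2, positive strains 5 to 6 and negative strains 4 to 5. Such counts need only the array that remains, a looser rule than the main counts on both arrays. GLC7 stayed between 0.64 and 0.77 and REG2 between 0.91 and 1.23 under all 8 alternatives. Limma called 0 strains over the whole table in each alternative except tags kept with array as a random block, which gave 350 positive and 166 negative calls; the cause was not tested. Leaving out an array leaves no test. No paired analysis was possible because there is 1 group, with the control pool in the other channel. Signal over background is unknown, so weak spots could not be set aside.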

Other observations

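GIP1 and REG2 lie 5 genes apart, and their second tags were among the highest of any strain. The second tag of GIP1 was at the 99.2 percentile on array 1 and the 99.7 percentile on array 2, and that of REG2 at the 98.8 and 98.1 percentiles. These strains and those nearby were looked at together after their values were seen, so the pattern carries no test. FMP23, between them, read 1.27 and 1.46 with its second tag on arrays 1 and 2, but -0.13 and 0.33 with its first. RFS1, next after REG2, read 1.66 and 1.68 with its second tag, but -0.94 and -0.14 with its first. RPS11B, a ribosomal protein gene in the same stretch, read 0.55 and 0.37 with its second tag and -0.05 and -0.33 with its first. TCM62 and ZTA1 went the other way, their first tags being the higher on both arrays. REB1, next before REG2, had no second tag value on array 1. On array 2 its second tag, at -0.79, was below its first, at -0.49. From TCM62 to RFS1, the second tag exceeded the first on both arrays in 5 of 7 strains with 4 values, against 33.5% of all such strains. The part of tag differences in the ratios of GIP1 and REG2 was not tested, though REG2 was positive by its first tag too, at 1.10 and 0.72.

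In the paralogs GIP2 and PIG2 the second tag exceeded the first on both arrays, as it did in 33.5% of all strains with 4 values. The PIG2 tags read -0.08 and 0.71 on array 1 and -0.09 and 0.27 on array 2, beside -0.18 and 0.70 and then -0.42 and 0.14 for GIP2. PIG1, the paralog of GAC1, had -0.15 ± 0.03, with 0.23 and -0.48 on array 1 and 0.28 and -0.61 on array 2.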
